A study of Mus musculus with 19 samples.

Results

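The comparison described here asked how the hippocampus of mice lacking EZH2 in neurons differed from that of wildtype mice 4 days after kainate. It used 9 of the 19 RNA-seq libraries of the series, chosen by their labels alone. They were the 5 kainate libraries of genotype EZH2(+/+);Syn1Cre(+/-), called WT, and the 4 kainate libraries of genotype EZH2(-/-);Syn1Cre(+/-), called EZH2nHom. All mice were on the C57BL6 background and all carried the Synapsin1-Cre transgene, so the WT controls shared the Cre with the knockouts. Status epilepticus, a prolonged seizure, was induced by repeated low doses of kainate, an agonist of glutamate receptors. The tissue is labelled R. Hippocampus in every library, and ages are not given in the sources used here. The other 10 libraries, 5 of each genotype, came from saline-injected mice and are used below only beside the kainate values. Replicate numbers below follow the sample titles, which number the EZH2nHom kainate libraries differently from their descriptions and count columns. Total RNA depleted of cytoplasmic and mitochondrial ribosomal RNA was sequenced, and reads were counted per gene.

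EZH2 is the catalytic subunit of Polycomb repressive complex 2 (PRC2), which methylates histone H3 at lysine 27 and keeps developmental genes silent. Its core partners are EED and SUZ12, and EZH1 is the alternative catalytic subunit. Polycomb repressive complex 1 (PRC1) binds the mark or CpG islands and ubiquitinates histone H2A, and the demethylases KDM6A and KDM6B remove the methyl groups. Synapsin1-Cre acts in neurons, whereas kainate seizures also activate astrocytes and microglia, in which the floxed alleles stay intact. In whole tissue, fewer cells of a type and less RNA per cell cannot be told apart.

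Very few genes passed the test. In edgeR's quasi-likelihood test with Benjamini-Hochberg adjustment over 18504 genes, 4 genes (0.0216%) had an adjusted p under 0.05, all 4 higher in EZH2nHom. They were Gm49369, Gm49450, Gm49337 and Gm29216. All 4 are annotated gene models that share nearly all of their sequence with other genes. At an unadjusted p under 0.05, 1458 genes (7.88%) were higher and 1143 genes (6.18%) were lower. The values of the genotypes did not overlap for 787 genes (4.25%) that were higher in all EZH2nHom libraries and 597 genes (3.23%) that were lower in all of them. Fitting all 19 libraries together, which adds the less variable saline libraries to the estimate of the spread, gave 1463 of 19234 genes (7.61%), 878 higher (4.56%) and 585 lower (3.04%). DESeq2 gave 387 genes and limma with sample quality weights gave 842.

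The sequences of the called models are shown because they tell which reads each count could hold. Gm49369 joins part of Ctsd, the lysosomal protease cathepsin D, to part of Ifitm10, a member of the interferon-induced transmembrane family. Of the words of 32 bases in its annotated transcripts, 76.2% were also in Ctsd and 18.2% in Ifitm10. Gm49337 likewise joins 1700042G07Rik (14.3% of its words) to Pik3r3 (83.8%), a regulatory subunit of phosphatidylinositol 3-kinase. The 30 bases across each join are given with capitals for the first gene, Ctsd or 1700042G07Rik, and lower case for the second, Ifitm10 or Pik3r3. In Gm49369 the match to Ctsd ends at base 605 and that to Ifitm10 starts at base 604. In Gm49337 these bases are 246 and 245, so in both models the last capitals match both genes.

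Gm49369: GAGACAACAATAGGGctcagggccccagcc

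Gm49337: TTCTGTCACCTCGAGctcttccaccaaagc

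All words of Gm49450 occurred in other genes, the alpha-tubulins Tuba1a (85.0%), Tuba1b (78.6%) and Tuba1c (74.9%). Gm29216 is a copy of part of mt-Co1, the mitochondrial gene of cytochrome c oxidase subunit 1, with 98.78% identity over 492 bases. The first 23 bases of the Gm29216 transcript hold all 6 differences between them. They are printed below the matching bases of mt-Co1, positions 1054 to 1076 of its transcript, with differing bases in capitals.

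mt-Co1: ggTCtAAcCggaAttgttttatc

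Gm29216: ggATtGGcAggaTttgttttatc

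Counted along mt-Co1, the differences are T1056A, C1057T, A1059G, A1060G, C1062A and A1066T. Over the rest of the 492 bases a read cannot be assigned to either copy by its sequence. The sequences are from the GENCODE M21 transcripts, build GRCm38, while the submitters' processing notes name mm39, so no coordinates are given.

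Gm49369 was the most clearly separated gene. In CPM, the read count scaled to the size of the library with TMM factors, the EZH2nHom libraries were at 88.6, 58.9, 57.9 and 115.4, and the WT libraries at 0, 0.139, 0, 0 and 0. The 5 WT reads all came from replicate 2, and the EZH2nHom libraries held 3515, 1597, 2505 and 3925 reads. The fitted log2 difference was 11.15 ± 0.55 (SE, adjusted p = 1.94e-05, edgeR). Its size rests on those 5 WT reads, and without WT replicate 2 the fit gave 14.38. After saline the model was also at 0 in all WT libraries and at 10.5 to 29.0 CPM in EZH2nHom.

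Gm49450 averaged 40.3 ± 7.94 CPM (SD, n = 4) in EZH2nHom and 0.224 ± 0.284 (SD, n = 5) in WT, which held 35 reads in all. Its log2 difference was 7.48 ± 0.68 (SE, adjusted p = 0.00437, edgeR). Gm49337 averaged 2.56 ± 0.622 CPM (SD, n = 4) in EZH2nHom and had no read in any WT library. Against a limit of 3 reads in a WT library, 0.0974 CPM, it was at least 26.3-fold higher (adjusted p = 0.00954, edgeR). Gm29216 was detected in every library, at 1583 ± 113 CPM (SD, n = 4) in EZH2nHom and 807 ± 72.9 (SD, n = 5) in WT. Its log2 difference was 0.97 ± 0.10 (SE, adjusted p = 0.00954, edgeR). No value of any of the 4 models overlapped between the genotypes.

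Set beside their partners, the models made up a larger share of the summed signal in EZH2nHom. These pairs were chosen after their values were seen. Gm49369 made up 3.85% of the sum of Gm49369 and Ctsd in EZH2nHom and 0.00264% in WT, while the sum itself, 2080 ± 701 against 1699 ± 1187 CPM (SD, n = 4 and 5), overlapped. Gm49450 made up 1.93% of its sum with the 3 alpha-tubulins in EZH2nHom and 0.0116% in WT. Gm49337 made up 3.93% of its sum with Pik3r3 in EZH2nHom, and Pik3r3 itself averaged 63.8 and 63.7 CPM. The share of Gm29216 in its sum with mt-Co1 ranged from 6.73% to 10.3% in EZH2nHom and from 5.11% to 5.52% in WT. Its sum was 19537 ± 3270 CPM (SD, n = 4) in EZH2nHom and 15195 ± 1177 (SD, n = 5) in WT, a log2 difference of 0.35, with overlap between the genotypes. How reads that fit several genes were assigned is not given in the sources used here, and its part in these results was not tested.

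The next 6 genes by p had adjusted p from 0.0576 to 0.106 in edgeR and did not pass. Rpl14-ps1, a pseudogene sharing 84.9% of its words with the ribosomal protein gene Rpl14, averaged 10.1 CPM in EZH2nHom and 2.91 in WT. mt-Atp6, a subunit of the mitochondrial ATP synthase, averaged 605.0 CPM in EZH2nHom and 1199 in WT. Its pseudogene Gm10925, identical to it over 678 bases, went the other way, at 2647 and 1279 CPM. Gm10925 made up 81.1% of their sum in EZH2nHom and 51.6% in WT, and the sum itself averaged 3252 and 2479 CPM, with overlap. Ranbp1, a regulator of nuclear transport, was at 50.6 and 29.0 CPM. Pdxk, the kinase that activates vitamin B6, was at 56.2 and 88.4 CPM. Ubxn1, which binds the segregase p97, was at 65.5 and 39.0 CPM. The genotypes did not overlap in any of these 6 genes, and their log2 differences had the same sign after saline.

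**Figure D1:**
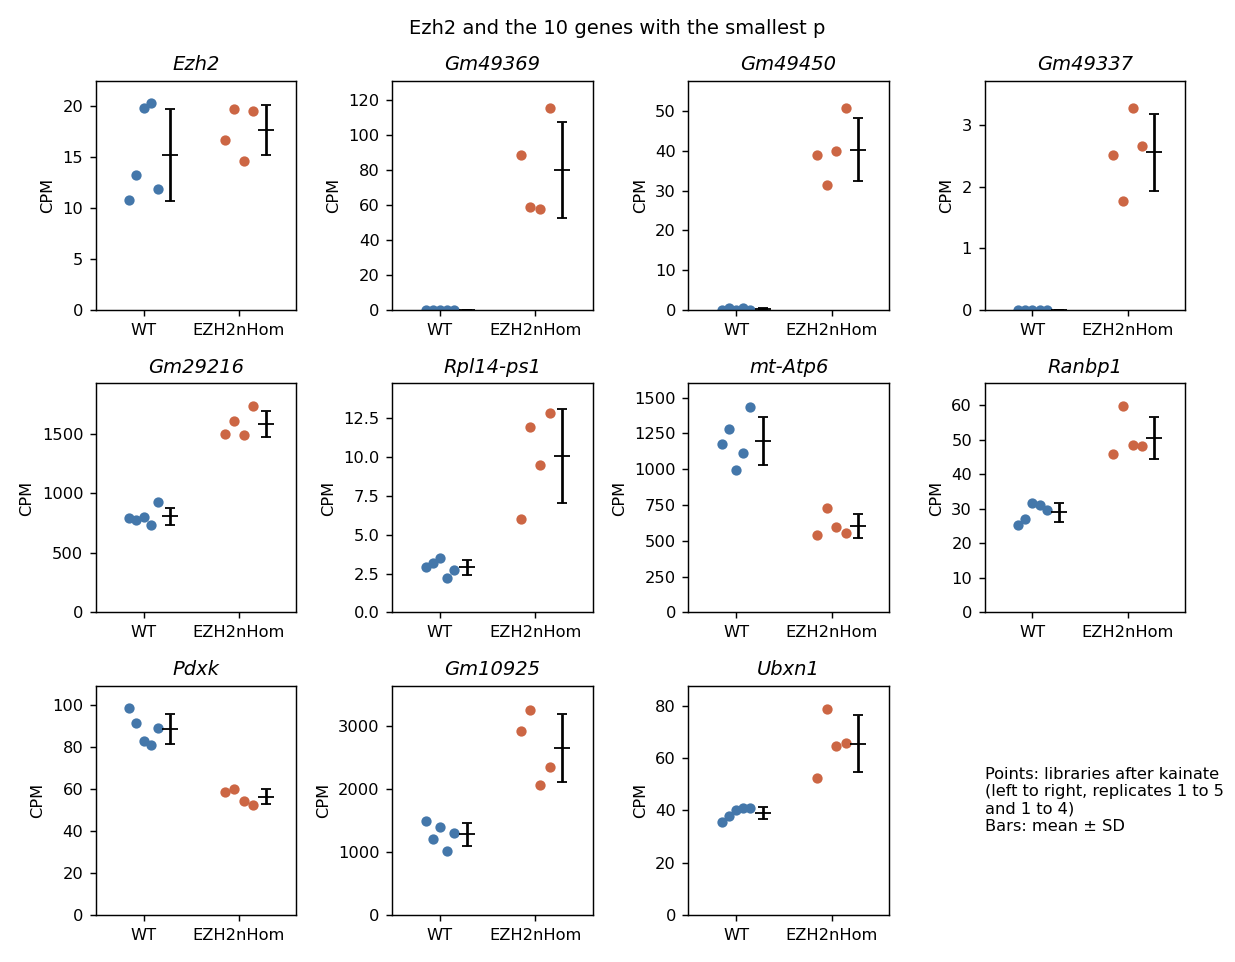
CPM (linear axis from 0, a scale for each gene) of Ezh2 and the 10 genes with the smallest p in each kainate library, with the mean and SD of each genotype. The groups do not overlap in any of the 10 genes, while Ezh2 values of WT (10.8 to 20.3 CPM) and EZH2nHom (14.6 to 19.7 CPM) do.

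Of the 10 genes, 7 had at least 80% of their words in other genes, where a word counted if any other gene held it. That share was 26% among the 50 genes with the smallest p, 5.65% among the genes without overlap and 2.96% among all 18423 genes with an entry in the annotation. Lists of small p thus held more such genes than the table as a whole.

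Ezh2 itself did not separate the genotypes. Its CPM were 10.8, 13.2, 19.8, 20.3 and 11.9 in WT replicates 1 to 5 and 16.7, 19.7, 14.6 and 19.5 in EZH2nHom replicates 1 to 4. WT replicates 3 and 4 lay above the highest EZH2nHom library, and the other 3 WT libraries lay below the lowest. The log2 difference was 0.21 ± 0.21 (SE, adjusted p = 0.675, edgeR), and an exact two-sided permutation test of the difference of 2.39 CPM gave p = 0.389, where 0.00794 is the smallest possible. The count covers all exons and all cells, including glia, so it does not check the knockout labels.

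The libraries differed in ways that the genotype does not describe. They held 24496685 to 43948317 reads. EZH2nHom replicate 2 stood apart on the first principal component (35% of the variance), at 111.6 against -24.6 to -1.1 for the other 8. It was the highest or lowest library for 57.1% of genes, against 9.78% to 26.6% for the others. The biological coefficient of variation was 0.248 in WT and 0.340 in EZH2nHom after kainate, against 0.130 and 0.1635 after saline. The 13 sample code prefixes of the series were never shared by both genotypes, so genotype and code prefix cannot be told apart. Y-linked reads were at or near 0 in WT replicates 1 and 2 and in EZH2nHom replicate 1. Markers of granule cells (Prox1, 62.6 to 99.4 CPM), excitatory neurons (Slc17a7, 259 to 569), inhibitory neurons (Gad1, 147 to 250), astrocytes (Aqp4, 456 to 1152) and oligodendrocytes (Mbp, 1148 to 2767) were present in every library.

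**Figure D2:**
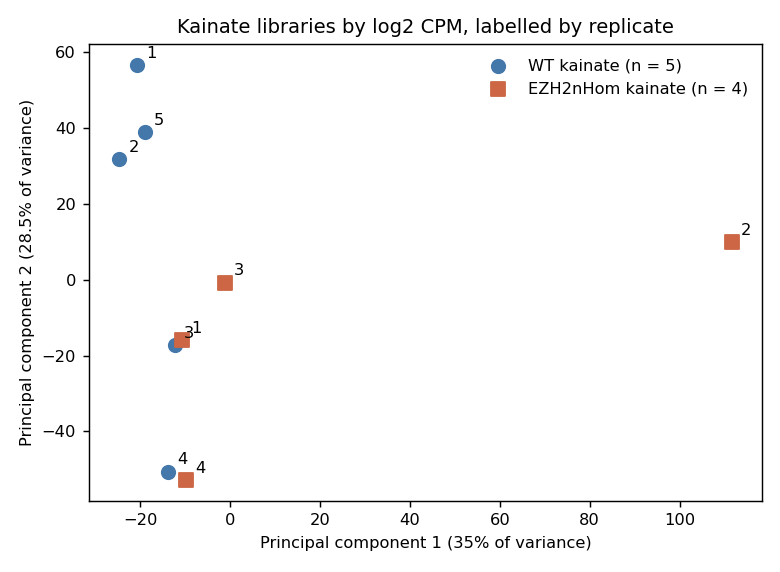
The 9 kainate libraries on the first (35% of the variance) and second (28.5%) principal components of their log2 CPM, in arbitrary units, numbered by replicate. EZH2nHom replicate 2 lies alone at 111.6 on the first component, and on the second WT replicates 3 and 4 lie with EZH2nHom libraries while WT replicates 1, 2 and 5 lie apart.

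Without EZH2nHom replicate 2, 18 of 18861 genes (0.0954%) passed, 11 higher and 7 lower (edgeR). They included the 4 called models together with Ranbp1 (log2 difference 0.72, adjusted p = 0.0297), Pdxk (-0.69, adjusted p = 0.0297), mt-Atp6 (-1.09, adjusted p = 0.0297) and Lars2 (-0.95, adjusted p = 0.0297), the mitochondrial leucyl-tRNA synthetase. Without EZH2nHom replicate 3 or replicate 4, 2 genes passed. Gm49369 and Gm49450 passed whichever kainate library was left out. Gm29216 did not pass without WT replicate 1 (adjusted p = 0.0738), WT replicate 2 (0.106), WT replicate 3 (0.0801), EZH2nHom replicate 3 (0.0535) or EZH2nHom replicate 4 (0.0645), in edgeR. Gm49337 did not pass without EZH2nHom replicate 1 (adjusted p = 0.0597), replicate 3 (0.0535) or replicate 4 (0.0645), nor with a covariate from Y-linked reads (0.0624), in edgeR. That covariate left the other 3 calls in place.

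No member of the 45 gene lists passed the adjusted test in the fit to the 9 libraries. The lists are therefore described by counts and by their median log2 difference, EZH2nHom minus WT, against a median of 0.0056 over all genes. The median standard error of a gene was 0.212. Some genes belong to several lists, so the lists are not independent.

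The Polycomb machinery differed little between the genotypes. Of 14 PRC2 subunits and partners, 8 had a positive and 6 a negative difference, none with an unadjusted p under 0.05, and their median was 0.01. Eed, which binds the methylated lysine, differed by 0.21 ± 0.15 (SE, log2), and Ezh1 by -0.24 ± 0.14. Suz12 was at 43.7, 39.2, 41.0, 45.7 and 36.8 CPM in WT and at 40.3, 74.1, 39.6 and 39.9 in EZH2nHom, so only replicate 2 lay above the WT libraries. Of 19 PRC1 subunits, 2 were higher and 2 lower at an unadjusted p under 0.05, against 7.88% and 6.18% of all genes. Their median was 0.06. The 6 genes listed for the removal of the Polycomb marks, of enzymes and their partners, had a median of 0.0.

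Developmental regulators that Polycomb keeps silent, such as Hox, Pax and Gata genes, stayed near the limit of detection in both genotypes. Only 14 of 92 listed genes had enough reads to be tested. Of these, 6 differences were positive and 8 negative, with a median of -0.11. At an unadjusted p under 0.05, 1 was higher, against 7.88% of all genes. Of the 78 genes that were not tested, 29 had no read in any of the 9 libraries, and the highest had 53 reads in a library. By mean reads per library, 20 of the 78 were higher in EZH2nHom. These reads were not scaled to library size, and EZH2nHom libraries held more reads at the median. The 29 genes without reads count for neither genotype.

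Genes induced by type I interferon, the antiviral cytokine signal, showed the highest positive median among the glial and immune lists. Of 33 measured genes, 32 had a positive difference and 14 had an unadjusted p under 0.05, all higher, against 7.88% of all genes. None passed the adjusted test and none separated the genotypes. The median was 1.13, and without EZH2nHom replicate 2 it was 1.39, with 22 genes higher at an unadjusted p under 0.05, against 7.93% of all genes. In the fit to all 19 libraries 7 of the 33 genes passed, all higher, against 4.56% of all genes, and 16 without EZH2nHom replicate 2, against 3.68%. The median ranged from 0.53 without EZH2nHom replicate 4 to 1.55 without WT replicate 4. After saline the median was 0.08 over 29 genes.

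The interferon levels varied widely within each genotype. The mean log2(CPM + 0.5) of the list was 2.62, 3.0, 4.19, 4.70 and 3.13 in WT and 4.80, 3.37, 4.31 and 5.63 in EZH2nHom. WT replicates 3 and 4 lay among the EZH2nHom libraries, and WT replicates 1, 2 and 5 lay below all of them. Gbp2, an interferon-induced GTPase, was at 8.83, 15.1, 34.0, 47.1 and 14.5 CPM in WT and at 55.2, 46.2, 43.9 and 108.9 in EZH2nHom (log2 difference 1.41 ± 0.47 SE, adjusted p = 0.244, edgeR). Ifit2, an inhibitor of viral translation, differed by 1.13 ± 0.39 (SE, log2), and its WT values reached 57.5 CPM against a lowest EZH2nHom value of 46.4.

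WT replicates 3 and 4 also had the highest WT levels of the other immune lists. Of 23 genes of the major histocompatibility complex and antigen presentation, 19 differences were positive and 6 had an unadjusted p under 0.05, all higher, against 7.88% of all genes. The median was 0.58, and it ranged from 0.27 without EZH2nHom replicate 4 to 1.09 without WT replicate 4. B2m, the invariant chain of class I molecules, was at 124, 151, 225, 342 and 127 CPM in WT and at 551, 218, 309 and 653 in EZH2nHom. Its log2 difference was 1.16 ± 0.38 (SE, adjusted p = 0.237), and after saline it was 0.75 ± 0.08 (SE, adjusted p = 2.36e-05, edgeR). Of 22 chemokines and cytokines, 21 differences were positive, 6 of them with an unadjusted p under 0.05, against 7.88% of all genes, and the median was 0.91. Cxcl9, which attracts activated T cells, averaged 1.22 ± 0.835 CPM (SD, n = 4) in EZH2nHom and 0.283 ± 0.131 (SD, n = 5) in WT. The genotypes overlapped, with EZH2nHom replicate 2 at 0.184 CPM (5 reads) and WT at 0.111 to 0.472 CPM (4 to 12 reads). Its adjusted p was 0.199 (edgeR).

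Reactive astrocyte genes, the response of astrocytes to injury, had a median of 0.72 over 39 genes. Of these, 38 differences were positive and 7 had an unadjusted p under 0.05, all higher, against 7.88% of all genes. Among these 7, Gbp2 is also in the interferon list and Psmb8 in the antigen presentation list, so the lists partly repeat each other. The list level was 3.11, 3.69, 4.88, 5.37 and 3.48 in WT and 4.74, 5.49, 4.52 and 5.36 in EZH2nHom. WT replicates 3 and 4 again lay among the EZH2nHom libraries. Without EZH2nHom replicate 2 the median was 0.46, and without WT replicate 4 it was 1.17. Sphk1, the kinase that makes sphingosine 1-phosphate, was at 28.1 CPM in EZH2nHom replicate 2 and between 0.917 and 2.24 in the other 8 libraries.

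Microglial genes differed less. The 30 activated microglia genes had a median of 0.47, with 27 differences positive. At an unadjusted p under 0.05, 1 was higher, against 7.88% of all genes. The median ranged from 0.27 without EZH2nHom replicate 4 to 0.83 without WT replicate 4. The 20 homeostatic microglia genes had a median of 0.13, none with an unadjusted p under 0.05. That median was -0.06 without EZH2nHom replicate 4, 0.36 without EZH2nHom replicate 2 and 0.44 without WT replicate 4. Their list level was 5.58, 5.93, 6.64, 7.11 and 5.83 in WT and 6.58, 5.63, 6.25 and 7.09 in EZH2nHom, so WT replicates 3 and 4 were high here too. The part of microglial content in the interferon values was not tested. All 35 proliferation genes had a positive difference, none with an unadjusted p under 0.05, and the median of 0.40 was 0.09 without EZH2nHom replicate 4 and 0.74 without WT replicate 4. Of 23 markers of infiltrating leukocytes and border macrophages, 15 were measured, with list levels of 0.3 to 1.48 in WT and 0.53 to 1.45 in EZH2nHom.

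**Figure D3:**
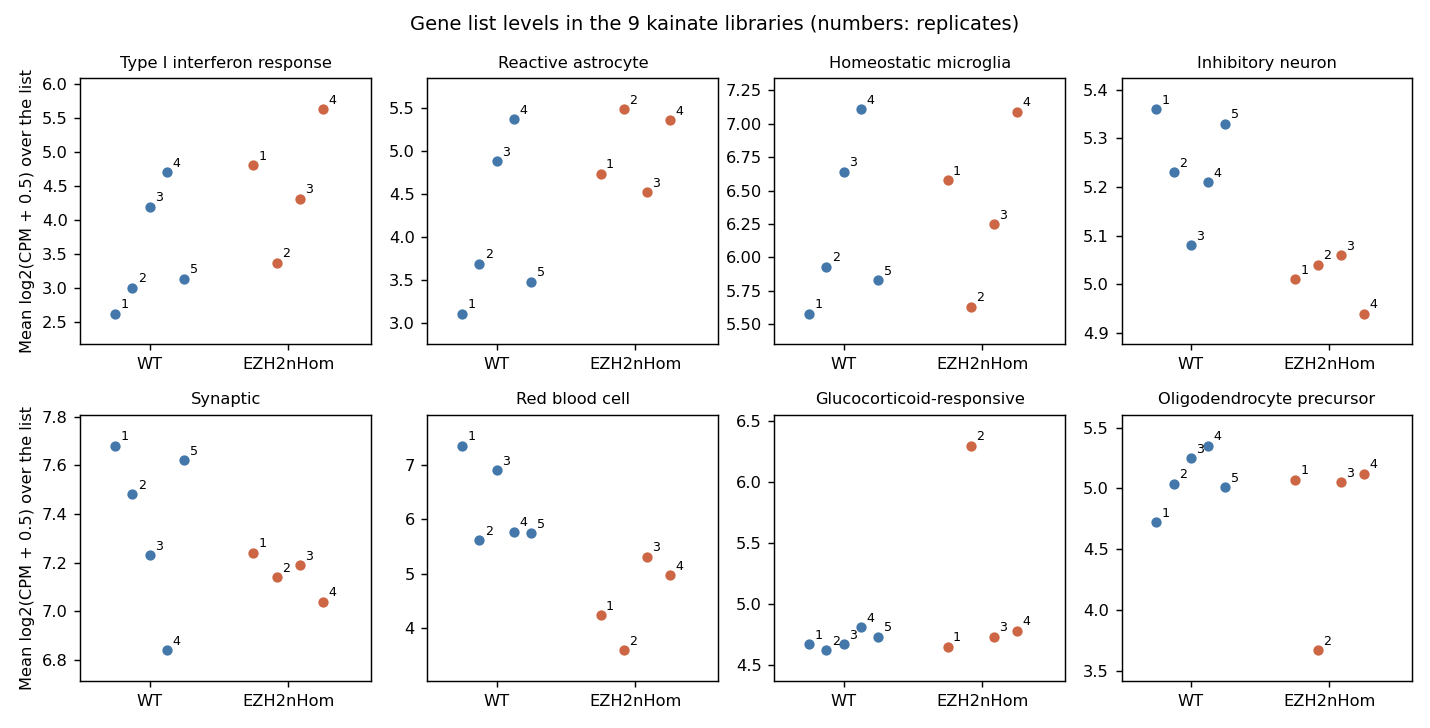
Mean log2(CPM + 0.5) over the genes of 8 lists in each kainate library (points, numbered by replicate), with an axis of its own for each list that does not start at 0. In the interferon list WT replicates 3 and 4 (4.19 and 4.70) lie among the EZH2nHom libraries (3.37 to 5.63), while in the inhibitory neuron and red cell lists all EZH2nHom values lie below all WT values.

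Red cell genes had the most negative median, -2.02 over 7 genes. Of these, 6 had an unadjusted p under 0.05, all lower, against 6.18% of all genes, and 5 separated the genotypes, against 3.23%. Hbb-bs, a beta-globin, was at 1003, 297, 721, 306 and 347 CPM in WT and at 86.4, 60.4, 225 and 157 in EZH2nHom. No EZH2nHom library reached the lowest WT library. The log2 difference was -2.01 ± 0.49 (SE, adjusted p = 0.174, edgeR), and after saline it was -0.44 ± 0.37 (SE, adjusted p = 0.416). Alas2, the first enzyme of haem synthesis in red cells, averaged 5.17 ± 3.27 CPM (SD, n = 4) in EZH2nHom and 21.1 ± 12.9 (SD, n = 5) in WT. In the fit to all 19 libraries 6 of the 7 genes passed, all lower, against 3.04% of all genes, and 4 without EZH2nHom replicate 2, against 3.05%. The part of blood left in the tissue was not tested.

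Genes of inhibitory neurons, which release GABA, were the neuronal list with the clearest separation. Of 26 genes, 22 differences were negative. At an unadjusted p under 0.05, 8 were lower and 1 higher, against 6.18% and 7.88% of all genes. Of the 26, 4 separated the genotypes with all EZH2nHom values lower, against 3.23% of all genes. The list level was 5.36, 5.23, 5.08, 5.21 and 5.33 in WT and 5.01, 5.04, 5.06 and 4.94 in EZH2nHom, without overlap. The median was -0.26, and -0.29 without EZH2nHom replicate 2, where 8 genes were lower at an unadjusted p under 0.05, against 7.65% of all genes. Nxph1, a neurexophilin, was at 18.7 to 24.3 CPM in WT and at 14.3, 16.9, 14.8 and 12.2 in EZH2nHom, without overlap. It differed by -0.51 ± 0.13 (SE, log2, adjusted p = 0.178) after kainate and by 0.08 ± 0.16 (SE, adjusted p = 0.737) after saline, in edgeR. Sst, the neuropeptide somatostatin, differed in the other direction, by 0.44 ± 0.16. Over the whole list the saline median was -0.08. After saline 8 of the 26 genes passed lower and 1 higher, against 15.2% and 16.2% of all genes.

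Receptor, channel and synapse genes had negative medians of similar size. Of 36 glutamate and GABA receptor genes, 34 differences were negative and 6 were lower at an unadjusted p under 0.05, against 6.18% of all genes, with a median of -0.23. Without EZH2nHom replicate 2, 3 of the 36 were lower, close to the 7.65% of all genes there, and the median was -0.15. Gabra2, a GABA-A receptor subunit, was at 247, 159, 70.7, 67.8 and 162 CPM in WT and at 88.3, 34.9, 62.8 and 62.8 in EZH2nHom, with WT replicates 3 and 4 among the EZH2nHom values. Of 39 voltage-gated channel genes, 7 were lower at an unadjusted p under 0.05, and the median was -0.25 (-0.16 without WT replicate 1). Cacna1i, a T-type calcium channel, averaged 24.2 ± 2.04 CPM (SD, n = 4) in EZH2nHom and 38.5 ± 9.87 (SD, n = 5) in WT. Of 34 presynaptic and postsynaptic genes, 29 differences were negative and 8 were lower at an unadjusted p under 0.05, and the median of -0.23 was -0.15 without WT replicate 1. These shares too stand beside 6.18% of all genes. Bsn, a scaffold of the presynaptic active zone, differed by -0.70 ± 0.22 (SE, log2), and Shank3, a postsynaptic scaffold, by -0.62 ± 0.20. Medians of dentate granule cell genes (0.01), CA1 genes (-0.06) and CA3 and CA2 genes (-0.09) lay near that of all genes. After saline the receptor median was 0.01, with 7 genes passing lower and 5 higher. The channel median there was -0.22, with 15 lower and 1 higher, and the synaptic median -0.19, with 14 lower and 6 higher. Of all genes, 15.2% passed lower and 16.2% higher after saline.

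**Figure D4:**
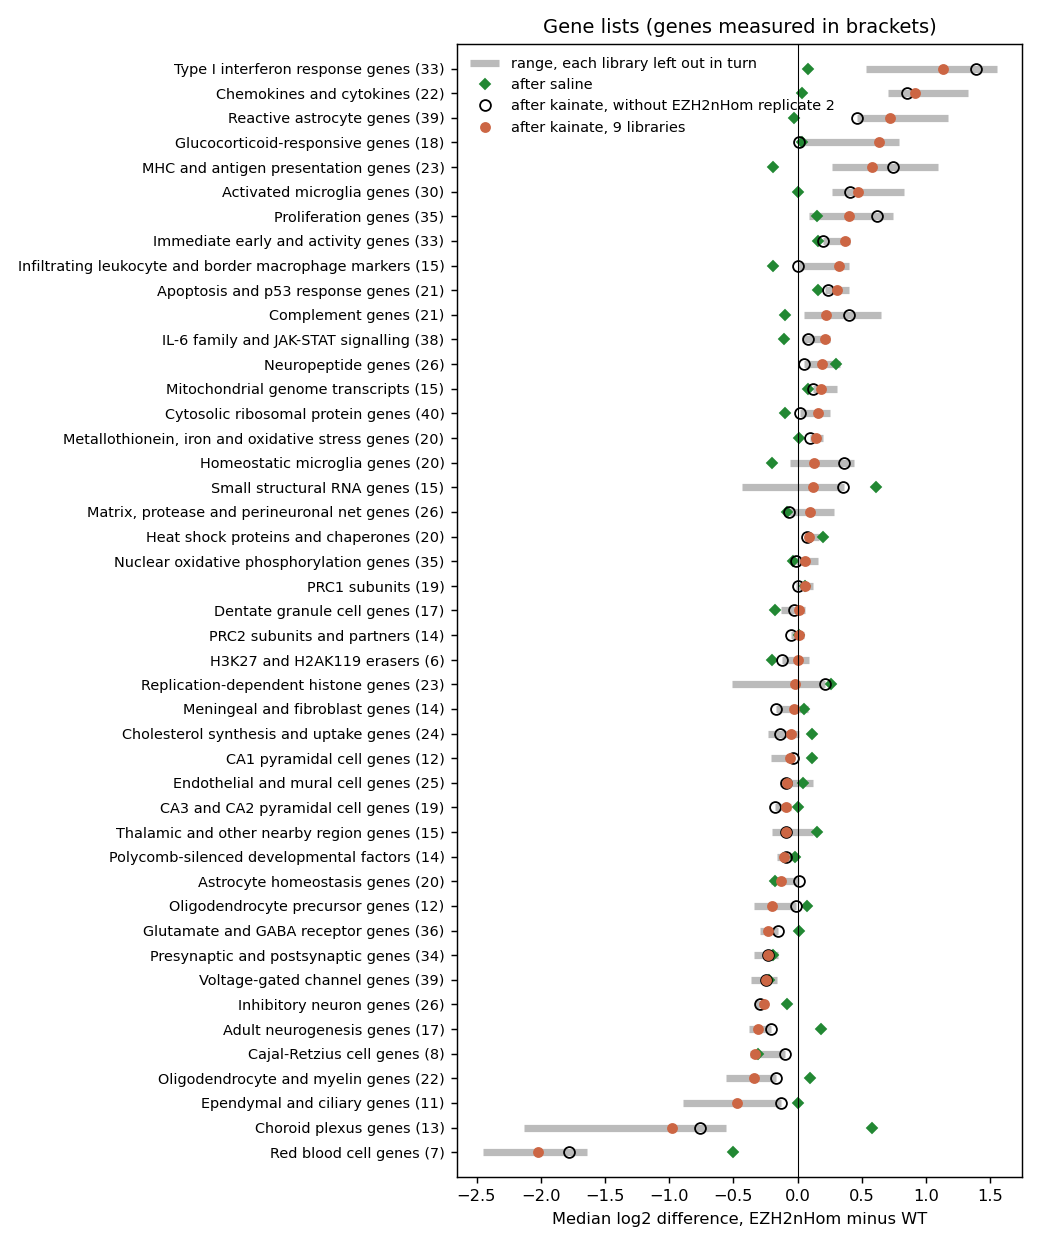
Median log2 difference, EZH2nHom minus WT, of each of 45 gene lists with all 9 kainate libraries, without EZH2nHom replicate 2 and after saline. Grey bars give the range when each kainate library is left out in turn. The red cell list has the most negative median (-2.02) and the interferon list the highest (1.13).

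Some lists rested on EZH2nHom replicate 2. Genes responsive to glucocorticoids, the stress hormones, had a median of 0.63 over 18 genes with all libraries and 0.01 without it. The list level there was 6.30, against 4.62 to 4.81 in the other 8 libraries. Pim1, a kinase, was at 37.2 CPM in replicate 2 and at most 6.06 in the others. Cdkn1a, the cell cycle inhibitor p21, was at 5.77, 42.5, 8.83 and 10 CPM in EZH2nHom replicates 1 to 4 and at most 9.37 in WT. Oligodendrocyte precursor genes had a level of 3.67 in it and 4.72 to 5.35 in the others. The medians of myelin genes (-0.34), ependymal genes (-0.47) and immediate early genes (0.37) became -0.17, -0.13 and 0.20 without it. Jun, a transcription factor of the early response, separated the genotypes at 34.1 to 38.8 CPM in WT and 41.7 to 55.7 in EZH2nHom (log2 difference 0.42 ± 0.10 SE, adjusted p = 0.174, edgeR).

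Genes of ribosomes and mitochondria had differences of both signs within their lists, and none passed the adjusted test. Of 40 cytosolic ribosomal protein genes, 10 were higher and 3 lower at an unadjusted p under 0.05, against 7.88% and 6.18% of all genes. The median was 0.16, and 0.02 without EZH2nHom replicate 2, where 8 were higher and 6 lower. Rpl35 was at 118 to 168 CPM in EZH2nHom and 92.3 to 108.5 in WT, without overlap. Rps27 was at 76.9 to 111 CPM in EZH2nHom and 125 to 139 in WT. Of 35 nuclear genes of oxidative phosphorylation, 8 were higher and 3 lower by the same measure, and 5 and 6 without EZH2nHom replicate 2. Cox6c, a cytochrome c oxidase subunit, differed by 0.59 ± 0.11 (SE, log2), and Cox5b, another, by -0.64 ± 0.12. Of 15 mitochondrial transcripts, 5 were higher and 3 lower, and the differences ran from mt-Nd1 (0.64 ± 0.16 SE, log2) to mt-Co2 (-1.68 ± 0.28 SE). Models such as Gm29216 and Gm10925 had 97.2% and 100% of their words in mitochondrial genes. The part of read assignment between such copies in these differences was not tested. Lars2 averaged 12.2 ± 2.74 CPM (SD, n = 4) in EZH2nHom and 26.2 ± 3.38 (SD, n = 5) in WT, and Scarna10, a Cajal body RNA, 611 ± 151 and 186 ± 68.2. Neither gene overlapped between the genotypes. Cox6c, Cox5b, Rpl35, Rps27, Lars2 and Scarna10 all passed the test after saline, with the same signs.

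Of 21 apoptosis and p53 response genes, 5 were higher and 1 lower at an unadjusted p under 0.05, against 7.88% and 6.18% of all genes, with a median of 0.31. Without EZH2nHom replicate 2, 2 were higher and 2 lower. Mdm2, the ubiquitin ligase that degrades p53, was at 33.5 to 37.2 CPM in WT and at 45.0, 80.9, 46.4 and 42.7 in EZH2nHom, without overlap. Zmat3, a p53 target that binds RNA, went the other way, at 54.2 to 78.8 CPM in WT and 51.6, 38.1, 33.8 and 38.4 in EZH2nHom. Of 38 genes of interleukin-6 family cytokines and JAK-STAT signalling, 3 were higher and 2 lower, and the median of 0.21 was 0.08 without EZH2nHom replicate 2 and 0.03 without EZH2nHom replicate 4. Socs5, a suppressor of cytokine signalling, averaged 63.9 ± 3.85 CPM (SD, n = 4) in EZH2nHom and 81.0 ± 7.33 (SD, n = 5) in WT, without overlap. Of 21 complement genes 1 was higher, and the median of 0.22 ranged from 0.05 without EZH2nHom replicate 4 to 0.65 without WT replicate 4. Of 20 heat shock and chaperone genes 2 were higher, with a median of 0.09.

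Lists of other cell types were mixed. Astrocyte homeostasis genes had a median of -0.13 over 20 genes, and of 0.01 without EZH2nHom replicate 2. With all 9 libraries, 2 of the 20 were lower at an unadjusted p under 0.05, against 6.18% of all genes. Slc1a2, the main astrocyte glutamate transporter, was at 4312, 3937, 3179, 3006 and 3649 CPM in WT and at 3210, 1630, 2337 and 2284 in EZH2nHom, so replicate 1 of EZH2nHom overlapped with WT. Its log2 difference was -0.61 ± 0.19 (SE, adjusted p = 0.225) after kainate and -0.55 ± 0.06 (SE, adjusted p = 4.52e-05) after saline, in edgeR. Of 17 adult neurogenesis genes, 14 differences were negative, with a median of -0.31. At an unadjusted p under 0.05, 2 were higher and 1 lower, against 7.88% and 6.18% of all genes. Dcx, a microtubule protein of young neurons, was at 23.4 to 29.4 CPM in WT and 14.8 to 21.8 in EZH2nHom, without overlap (log2 difference -0.48 ± 0.14 SE, adjusted p = 0.204, edgeR). Cajal-Retzius cell genes had a median of -0.33 over 8 genes, and -0.10 without EZH2nHom replicate 2. Reln, the secreted protein that guides layering, differed by -0.33 ± 0.11 (SE, log2) after kainate and by -0.31 ± 0.10 after saline. None of the 25 endothelial and mural cell genes and none of the 15 measured genes of the thalamus and other nearby regions had an unadjusted p under 0.05.

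The choroid plexus, a tissue next to the hippocampus, differed widely between libraries of the same genotype. All 13 of its genes had a negative difference, with a median of -0.98, but none had an unadjusted p under 0.05. The median ranged from -2.13 without EZH2nHom replicate 3 to -0.56 without WT replicate 3. The list level was 4.51, 1.67, 4.60, 2.18 and 2.73 in WT and 1.42, 1.12, 4.01 and 2.16 in EZH2nHom. After saline the median was 0.58.

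The genotype difference was much more often called after saline, where the libraries varied less. With 10 libraries, 5604 of 17814 genes (31.5%) passed, 2891 higher (16.2%) and 2713 lower (15.2%). Of the 5579 of them that were also tested after kainate, 4678 (83.85%) had the same sign there. Of the 2512 genes with an unadjusted p under 0.05 after kainate that were tested after saline, 1658 passed after saline in the same direction and 10 in the opposite one. Across 17579 genes the log2 differences had a Pearson correlation of 0.477 and a Spearman correlation of 0.447, given as a description, since genes are not independent replicates. The treatments share no library, but in both the genotypes share no code prefix. The difference between the genotype effects after kainate and after saline, tested as an interaction over 19234 genes, passed for 0 genes in edgeR, with 1685 genes (8.76%) at an unadjusted p under 0.05, and for 14 genes in DESeq2.

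**Figure D5:**
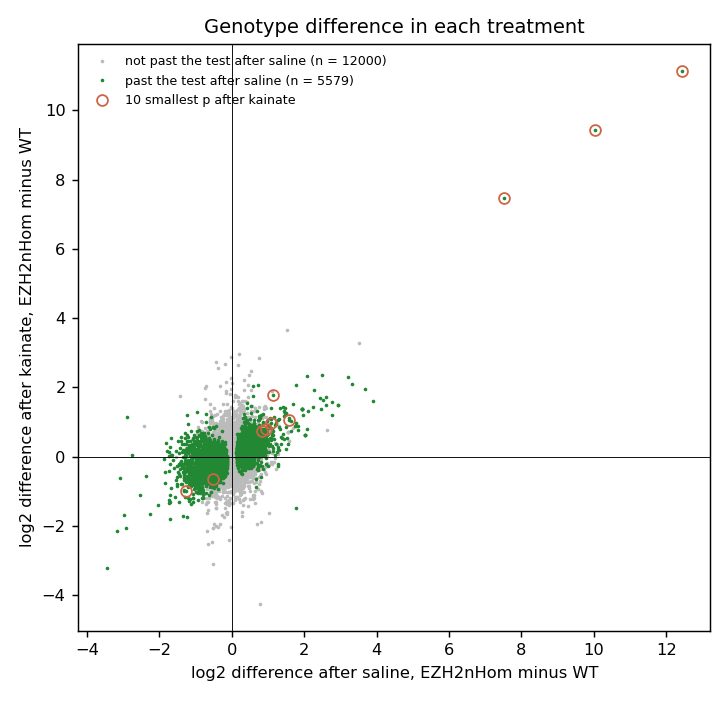
Log2 difference between EZH2nHom and WT after saline (x axis) and after kainate (y axis) for 17579 genes (points), with the 5579 genes that passed the test after saline in green and the 10 genes with the smallest p after kainate circled. Of the 5579 genes, 83.85% have the same sign after kainate, and Gm49369, Gm49337 and Gm49450 lie far from all others at the upper right.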

How the data were processed

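Whole-hippocampus total RNA libraries were compared between genotypes 4 days after kainate. The authors deposited one table of whole-number read counts per gene. The submitters' processing notes name mm39, DESeq2 and DESeq without versions, and the aligner and counter are not given in the sources used here. Symbols came from the authors' table for 32313 of 55416 genes and from a reference table for 20022. The 9 kainate libraries (24496685 to 43948317 reads) were fitted in edgeR 4.0.16 (R 4.3.3) with TMM scaling, its default filter on low counts and the robust quasi-likelihood test, and a gene passed at a Benjamini-Hochberg adjusted p under 0.05. The 10 saline libraries were fitted alike, and the interaction used all 19. Alternatives used DESeq2 1.42.0, limma 3.58.1, other filters and omitted libraries. Shared sequence was counted in words of 32 bases.

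Since 0 genes met the full rule for named genes, the text names Ezh2, the 10 genes with the smallest p and some of the up to 4 genes with the smallest p of each list. Certain genes of that set are not reported here. The members and lists were chosen with earlier results of these data known. Cell type markers and partners of shared sequence are also named. The labels do not say which libraries share an animal or litter, so p-values measure only the spread between these libraries. The scripts were tested on simulated data.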

Additional observations from a re-analysis of the deposited data

Results flagged for a closer look

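Of 120 groups of values examined, 6 held a library far from the others of its genotype after kainate, where chance gives about 1 in 20. The number flagged is close to that rate, but the groups share libraries and many lists share genes. The count therefore cannot tell chance from a library that stands apart, and the libraries are listed as a description. EZH2nHom replicate 2 stood apart in 3 list levels, on the mean log2(CPM + 0.5) scale. It was at 4.95 in PRC2 subunits and partners (4.64 to 4.69 in the other EZH2nHom libraries), at 3.67 in oligodendrocyte precursor genes (5.05 to 5.12), and at 6.30 in glucocorticoid-responsive genes (4.65 to 4.78). WT replicate 5 had the highest level of nuclear oxidative phosphorylation genes, 6.74 against 6.52 to 6.58 in the other WT libraries. EZH2nHom replicate 4 had 0.766% of its reads in small structural RNAs, against 0.19% to 0.28% in the others. WT replicate 2 held the only WT reads of Gm49369, 0.139 CPM against 0 in the other 4.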

How the results depend on the processing

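The count of called genes after kainate differed widely between settings. Against 4 genes, all higher (100%), it was 1463 in the fit to all 19 libraries (60% higher), 1315 without EZH2nHom kainate replicate 2 in that fit (54.7%), 387 in DESeq2 (58.9%), 842 in limma with quality weights (61.4%), and 7 with no filter on low counts (85.7%). Leaving out 1 library gave 2 to 18 genes, with 61.1% to 100% higher (18 and 61.1% without EZH2nHom replicate 2, 80% without WT replicate 4, 2 without EZH2nHom replicate 3 or replicate 4). The log2 difference of Ezh2 was 0.2117 and ranged from 0.1258 to 0.3391. Replicate numbers follow the sample titles, which number the EZH2nHom kainate libraries 1 to 4. Their descriptions and count columns number them 2 to 5, so replicate 2 here carries number 3 there. Deviations of libraries with the same title number correlated at 0.145, -0.0507, -0.119 and 0.432 after kainate and at 0.0429 to 0.415 after saline. By these numbers, 2 of 8 kainate and 3 of 10 saline libraries correlated best with their own number. Since not every pair exceeded 0.1, the numbers were not taken to pair the libraries. Pairing by the description numbers was not checked. The fit with a replicate block gave 1 gene after kainate, Gm49369, without a call for Gm49450 (adjusted p = 0.098), Gm49337 (0.359) or Gm29216 (0.228), and 6457 after saline. The saline count of 5604 became 2596 in the fit to 19 libraries and 3249 at an adjusted p under 0.01, and 4551 to 5666 when 1 library was left out. The interaction gave 0 genes, 14 in DESeq2, and 0 to 4 when 1 library was left out (4 without EZH2nHom kainate replicate 2, 1 without WT saline replicate 1 or EZH2nHom saline replicate 5). The cause of these shifts was not tested.

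Of 3425 alternative values for 181 named genes, 3177 kept direction and call, 12 lost the call, 17 changed sign and the rest passed newly. Only the 4 called models had a call to lose, so all 12 losses were theirs. For the other named genes, keeping the call meant not passing again. Without EZH2nHom replicate 2, alone and in the fit to 19 libraries, the log2 difference became -0.04657 and -0.04646 for Suz12, -0.03218 and -0.03261 for Kdm6a, -0.1874 and -0.1875 for Asxl1, -0.1274 and -0.1296 for Lyve1, and -0.3503 and -0.3498 for S100a9. In limma it became -0.2249 for Kdm6a, -0.1832 for Asxl1, -0.07593 for Lyve1, -0.02171 for S100a9 and 0.07569 for Sostdc1. Without EZH2nHom replicate 4 it became -0.2081 for H3c7 and -0.348 for H3c3. Leaving out 1 library gave upper ends of 0.3172 for Suz12, 0.2707 for Kdm6a and 0.2099 for Asxl1 (without EZH2nHom replicate 3), 1.194 for Lyve1 and 0.6843 for H3c7 (replicate 1), 1.128 for H3c3 (replicate 2), and 1.487 for S100a9 (without WT replicate 4). Of 854 alternative list medians, 848 moved by less than the spread between replicates. That spread is wide where 1 library stands apart, so this does not show stable medians. The SD of the glucocorticoid list level was 0.79 in EZH2nHom and 0.07 in WT. Its median of 0.63 became 0.01 without EZH2nHom replicate 2.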

Other observations

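Gm2436, chosen after its values were seen, was read in some libraries of both genotypes and not in others. It had 64, 92, 63, 49 and 94 reads in the WT kainate libraries and 0, 84, 0 and 0 in the EZH2nHom kainate libraries. It did not pass in all 9 libraries (adjusted p = 0.581, edgeR) and passed without EZH2nHom replicate 2 (adjusted p = 0.00228). After saline both genotypes held libraries at 0, and the highest value was 3.75 CPM in EZH2nHom and 3.54 in WT.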
